A study of Mus musculus with 6 samples.

Results

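Sperm glycolytic isozymes are enzymes of sugar breakdown made by genes active in male germ cells, and each has a somatic counterpart that catalyses the same step in most other tissues. The set held 10 genes chosen by name, 5 testis isozymes (*Gapdhs*, *Pgk2*, *Ldhc*, *Aldoart1* and *Aldoart2*) and 5 somatic counterparts (*Gapdh*, *Pgk1*, *Ldha*, *Ldhb* and *Aldoa*), out of 19260 genes that could be named on the arrays. A probe was assigned to a gene through the RefSeq accession that the files give for it. By this rule 9 of the 10 genes had a probe, with 10 probes in the lncRNA and mRNA designs, and no probe mapped to *Aldoart1*. *Aldoart2* was measured by a probe of the lncRNA design (NR_003959, an accession of the RefSeq class for non-coding RNA) and the other genes by probes of the mRNA design.

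RNA came from whole testis of male C57/BL6 mice at 6 days (neonatal) and 8 weeks (adult) of age. Each age had 3 biological replicates, the mice of an age having been divided into 3 groups, so that a replicate stands for pooled animals and not for 1 mouse. Each replicate was hybridized to 1 single-colour (Cy3) array of lncRNA and mRNA probes. A normalized log2 signal is the log2 of a probe's signal over the 75th percentile of its array, with a common floor at -7.22. Such values are compared between arrays for 1 probe and not between probes.

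Glycolysis splits glucose into pyruvate and yields ATP, and lactate dehydrogenase then turns pyruvate into lactate while renewing the NAD+ that the glyceraldehyde-3-phosphate step uses. In mouse sperm several of these enzymes are bound to the fibrous sheath, a cytoskeletal sleeve of the tail, and come from genes or retrogenes that are transcribed in meiotic and haploid germ cells. The somatic phosphoglycerate kinase gene *Pgk1* lies on the X chromosome, which is silenced in meiotic spermatocytes, whereas *Pgk2* is an autosomal retrogene.

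In adult testis *Pgk2*, *Aldoart2* and *Gapdhs* were far above their neonatal signals, *Ldhc* rose less, and among the counterparts *Ldha* rose while *Gapdh* and *Ldhb* fell. Spots that the scanner software marked as outliers were left out of the fit. Testing required complete data in at least 2 replicate numbers, which left 7 of the 9 measured genes. Of these 7, limma called 4 higher in adult testis at a 5-fold minimum and an adjusted p of at most 0.05 (*Pgk2*, *Aldoart2*, *Gapdhs* and *Ldha*), where 15.4% of all 24517 tested lncRNA and mRNA probes were called higher. No member was called lower at that fold (0 of 7, also 0 at an unadjusted p of at most 0.05 and 0 by the methods' t-test), against 12.2% of all tested probes. With no fold minimum, 5 of 7 were higher (32.8% of all tested probes) and 2 of 7 lower (41.5%). With outlier spots kept, all 9 measured genes were tested, and 4 were called higher and 1 lower at the 5-fold minimum (15.8% and 13.7% of 29888 probes). With no fold minimum these counts were 5 and 3 (32.9% and 45.0% of the probes). Under quantile normalization, 3 members were called higher and 1 lower at the 5-fold minimum. Normexp background correction gave the same counts, but it was followed by quantile normalization here, so that these settings share a step. The smaller changes of *Ldhc*, *Gapdh* and *Ldhb* did not pass the methods' t-test after Benjamini-Hochberg adjustment (adjusted p = 0.0966, 0.111 and 0.0501). In bulk testis, fewer cells of a type and less RNA per cell cannot be told apart.

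*Pgk2* encodes the phosphoglycerate kinase of spermatogenic cells, which makes ATP from 1,3-bisphosphoglycerate. Its probe (NM_031190) had normalized log2 signals of -6.54, -6.44 and -7.22 in neonatal replicates 1 to 3 and of 6.73, 6.78 and 6.88 in adult replicates 1 to 3. The neonatal signals lay at or near the floor and were well above background on 1 of 3 arrays, the adult signals lay close together, and the groups did not overlap. The fit put the log2 fold change at 13.24 ± 0.14 (SE, 2 complete pairs, adjusted p = 0.000124), with the outlier spot of adult replicate 3 left out. Here and below, an SE of the fit is limma's moderated SE. It draws in part on the spread of all tested probes and does not measure the spread of the pairs alone. With neonatal signals so near background the size of the log2 fold change depends on the processing. Quantile normalization gave 12.80, and normexp, which includes that step, gave 10.73.

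The somatic kinase gene *Pgk1* (NM_008828) gave -1.84, -1.80 and -2.41 in neonatal and -5.44, -6.73 and -6.19 in adult replicates 1 to 3. Every adult array was below every neonatal array, and 2 of 3 adult arrays were well above background. The spots of neonatal replicates 1 and 2 were marked as outliers, so that *Pgk1* had 1 complete pair and was not tested with those spots left out. Keeping them gave -4.10 ± 0.31 on the log2 scale (SE, 3 pairs, adjusted p = 0.000418).

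*Gapdhs* encodes the glyceraldehyde-3-phosphate dehydrogenase of sperm, an enzyme anchored to the fibrous sheath. Its probe (NM_008085) was at -7.22, -7.22 and -6.92 in neonatal replicates 1 to 3 and at 0.33, -0.41 and 0.26 in adult replicates 1 to 3. On 2 neonatal arrays it was at the floor, 1 of 3 was well above background, and the groups did not overlap. The fit put the log2 fold change over 3 complete pairs at 7.18 ± 0.18 (SE, adjusted p = 0.000123), a size that rests on the floor, since it was 8.67 with no floor and 5.10 under normexp. *Gapdhs* was the only member with no outlier spot on any of the 6 arrays.

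*Gapdh*, the somatic dehydrogenase that many assays use as a reference gene, went the other way. Its probe (NM_008084) gave 5.03, 5.22 and 6.03 in neonatal and 3.34, 3.09 and 3.96 in adult replicates 1 to 3. Replicate 3 was the highest array of each age, and the groups did not overlap. The log2 fold change was -1.91 ± 0.19 (SE, 2 pairs, adjusted p = 0.00373), a signal 3.77-fold lower in adult testis. Under quantile normalization (-2.60) and normexp (-2.58) it was called lower at the 5-fold minimum. The call with no fold minimum was lost with no filter on dim probes (limma adjusted p = 0.0536) and by the methods' t-test after adjustment (0.111). Another *Gapdh* probe, printed in 10 spots an array, was at 5.45 ± 0.39 in neonatal and 3.53 ± 0.44 in adult testis (SD, n = 3 each), a mean difference of -1.93 over the 3 pairs.

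Retrogene-derived aldolases cleave fructose-1,6-bisphosphate in spermatids and sperm. The *Aldoart2* probe had normalized log2 signals of -6.35, -6.45 and -5.41 in neonatal replicates 1 to 3 and of 5.75, 5.55 and 6.11 in adult replicates 1 to 3. All 6 arrays were well above background, and the lowest adult array lay far above the highest neonatal array. The log2 fold change was 12.05 ± 0.14 (SE, 2 pairs, adjusted p = 0.000126), a 4234-fold higher signal, and under normexp background correction it was 9.45. Probe sequences were not analysed here, and whether this probe also binds *Aldoart1* or *Aldoa* transcripts was not tested.

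*Aldoa*, the aldolase of muscle and most other tissues, gave no detectable difference. Its probe (NM_007438) was at 5.38, 5.66 and 6.70 in neonatal and at 4.99, 5.64 and 6.64 in adult replicates 1 to 3. The groups overlapped, and replicate 3 was the highest array at both ages. Outlier spots on 3 arrays left 1 complete pair. When those spots were kept, limma put the log2 change at -0.16 ± 0.14 (SE, 3 pairs, adjusted p = 0.337), and relative to the median of all tested probes in that fit it was 0.15.

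*Ldhc* encodes the lactate dehydrogenase subunit of germ cells. Its probe (NM_013580) was well above background on all 3 neonatal arrays, at 2.54, 2.53 and 4.22, and it gave 4.44, 4.11 and 5.77 in adult replicates 1 to 3. Neonatal replicate 3 was above adult replicate 2, so the groups overlapped, yet the adult array was the higher one in each of the 3 pairs. The difference was 1.91, 1.58 and 1.55 in replicates 1 to 3. Both spots of replicate 3 were marked as outliers, and limma on the other 2 pairs put the log2 change at 1.74 ± 0.17 (SE, adjusted p = 0.00358), a 3.35-fold higher signal that did not reach the fold minimum of 5. With outlier spots kept, the log2 fold change was 1.68, with an adjusted p of 0.000506 in the fit with the replicate block and of 0.0514 in the fit without it.

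*Ldha* encodes the subunit of muscle type lactate dehydrogenase and was the only somatic counterpart among those tested that rose. Its brighter probe (NM_001136069) gave 3.90, 4.01 and 4.36 in neonatal and 6.56, 6.74 and 7.05 in adult replicates 1 to 3. The groups did not overlap, and the 3 pairs differed by 2.65, 2.73 and 2.69. The log2 fold change was 2.69 ± 0.14 (SE, 2 pairs, adjusted p = 0.000996), or 6.46-fold. The other *Ldha* probe (NM_010699) rose by 2.77 ± 0.17 (SE, 2 pairs, adjusted p = 0.0014). The call of a fold of at least 5 was lost for both probes under quantile normalization (2.02 for the brighter and 2.16 for the other) and for the brighter one under normexp background correction (2.18).

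*Ldhb*, the gene of the heart type subunit, fell. Its probe (NM_008492) was at 5.83, 5.97 and 6.19 in neonatal and at 4.44, 4.49 and 4.49 in adult replicates 1 to 3. Both groups were tight and did not overlap. The log2 fold change was -1.43 ± 0.14 (SE, 2 pairs, adjusted p = 0.00378), a 2.70-fold lower signal, and under quantile normalization and normexp it was -2.18 and -2.11.

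**Figure D1:**
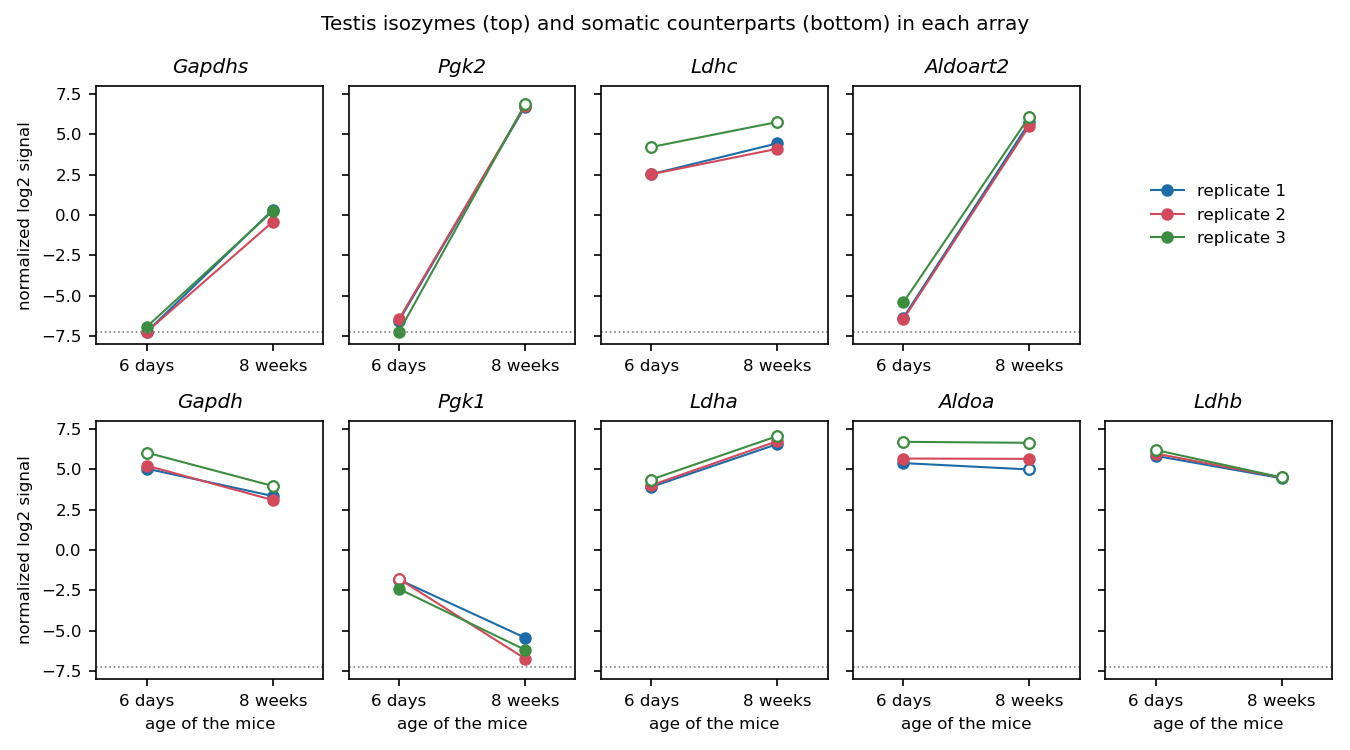
Normalized log2 signal (vertical axis) of each measured gene at 6 days and 8 weeks, 1 point per array and 1 line per replicate number; open points are outlier spots and the dotted line is the floor at -7.22. The adult points of *Pgk2*, *Aldoart2* and *Gapdhs* lie far above the neonatal points, and those of *Ldhc* and *Aldoa* overlap with the neonatal points.

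Because most members had an outlier spot in replicate 3, the fits of 6 of the 7 tested genes rest on replicates 1 and 2. In replicate 3, 81.3% of the brightest 10% of lncRNA and mRNA probes were marked as outliers on the neonatal array and 77.2% on the adult array, against 15.4% to 17.8% on the other 4 arrays. Of the 10 member probes, 6 were so marked in neonatal and 8 in adult replicate 3. Replicate 3 of both ages was also scanned apart from the other 4 arrays, so that the scan and this replicate number cannot be told apart. Within that scan, with outlier spots kept, the adult minus neonatal difference was 14.11 for *Pgk2*, 11.52 for *Aldoart2*, 7.18 for *Gapdhs*, 2.69 for *Ldha*, 1.55 for *Ldhc*, -0.06 for *Aldoa*, -1.70 for *Ldhb*, -2.07 for *Gapdh* and -3.77 for *Pgk1*. With the scan in place of the replicate number as the block, *Gapdhs* was at 7.18 (adjusted p = 1.25e-05). The other 6 tested genes have complete pairs in 1 scan only, so that this block does not bear on them.

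Each testis isozyme was next set against its counterpart within each array, where the scale of the array cancels. The log2 ratio was taken with outlier spots kept, so that each array gave a value, and only its change between the ages is read. A ratio could be formed for 5 pairs of genes. In an exact permutation test of 3 against 3 arrays the smallest two-sided p is 0.1, so that no ratio could pass 0.05.

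The *Pgk2*/*Pgk1* ratio was at -4.70, -4.64 and -4.81 in neonatal and at 12.16, 13.50 and 13.07 in adult replicates 1 to 3. The ages did not overlap, and the mean difference was 17.63 ± 0.68 (SD of the 3 pairs, exact p = 0.1). Since *Pgk2* was well above background on 1 of 3 neonatal arrays and *Pgk1* on 2 of 3 adult arrays, this size is uncertain, and normexp gave 12.72. This was the pair in which the germ cell gene rose and the X-linked gene fell, and a part of X silencing in it was not tested. The *Aldoart2*/*Aldoa* ratio changed by 12.03 ± 0.46 (SD of the 3 pairs, exact p = 0.1), nearly all of it from *Aldoart2*, and by 10.48 under normexp. The *Gapdhs*/*Gapdh* ratio changed by 9.15 ± 0.17 (SD of the 3 pairs, exact p = 0.1), with 2 neonatal arrays of *Gapdhs* at the floor, by 10.64 with no floor and by 7.63 under normexp.

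At the lactate dehydrogenase step the direction depended on the counterpart. Set against *Ldhb*, the *Ldhc* log2 ratio was -3.29, -3.44 and -1.98 in neonatal and 0.00, -0.38 and 1.27 in adult replicates 1 to 3, a change of 3.20 ± 0.12 (SD of the 3 pairs, exact p = 0.1). Set against *Ldha*, it was -1.37, -1.48 and -0.15 in neonatal and -2.11, -2.63 and -1.29 in adult replicates 1 to 3. The *Ldhc*/*Ldha* ratio thus changed by -1.01 ± 0.23 (SD of the 3 pairs), lower in adult testis in each of the 3 pairs, while the groups overlapped (exact p = 0.3). *Ldha* therefore rose more than *Ldhc* in every pair, a description that the test over arrays cannot carry past its threshold.

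**Figure D2:**
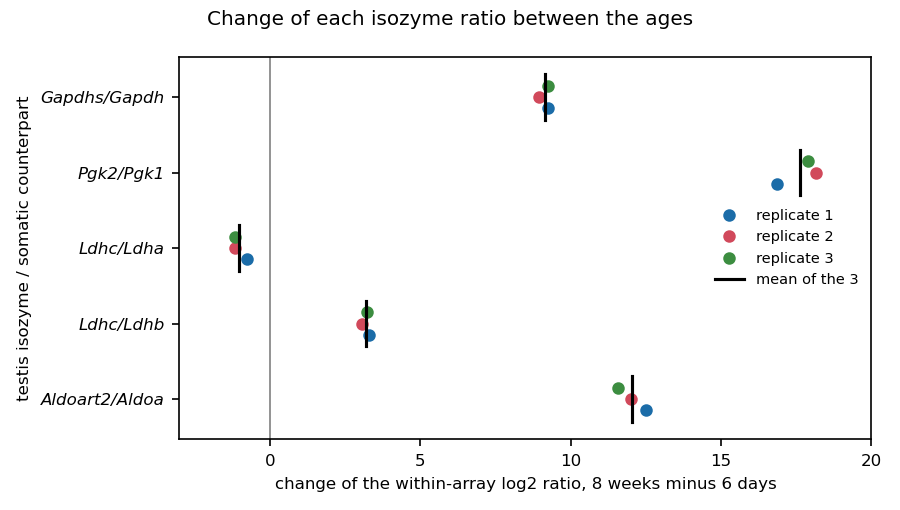
Change of the within-array log2 ratio of testis isozyme over somatic counterpart, adult minus neonatal (horizontal axis), for 5 pairs of genes; each point is 1 replicate number and the black bar is the mean of the 3. The change is 17.63 for *Pgk2*/*Pgk1* and -1.01 for *Ldhc*/*Ldha*, the only pair on the negative side.

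The tissue label was checked with fixed marker lists, each summed as signal over the array's 75th percentile, outlier spots included. The brightest probe of a list is the one with the highest mean log2 signal over the 6 arrays, and where another probe was highest within an age it is named too, as a description with no comparison of levels. Of 5 spermatid markers, which package the haploid genome or build the acrosome, 5 were called higher at a fold of at least 5. For this and the other marker lists the shares of all tested probes called are 15.4% higher and 12.2% lower. The spermatid sum was 0.414, 0.403 and 0.502 in neonatal and 999.9, 1172 and 1373 in adult replicates 1 to 3. Their brightest probe was that of *Tnp1*, and in adult testis that of *Prm2* (adult mean 8.95). The spermatocyte markers, genes of meiotic chromosomes and germ cell small RNAs, summed to 16.5, 13.6 and 10.2 in neonatal and 73.6, 89.0 and 87.7 in adult replicates 1 to 3, with *Sycp1* the brightest and *Piwil1* (adult mean 5.29) the brightest in adult testis. Of these, 2 of 3 tested genes were called higher at that fold. All 5 spermatid and all 5 spermatocyte markers were well above background on the 3 neonatal arrays too.

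The summed signal of spermatogonia and Sertoli markers was lower in adult testis, and the direction of the Leydig sum depended on *Insl3* and *Hsd3b1*. The 5 spermatogonia markers summed to 21.1, 20.5 and 29.4 in neonatal and 5.60, 6.85 and 7.11 in adult replicates 1 to 3 (*Kit* brightest, *Gfra1* not well above background on any array), with 1 of 3 tested called higher and 1 lower at a fold of at least 5 (2 lower under quantile normalization). The Sertoli list, 5 of 6 genes with a probe, summed to 61.3, 63.2 and 47.2 in neonatal and 13.76, 10.12 and 11.02 in adult replicates 1 to 3 (*Wt1* brightest), with 1 of 2 tested called lower. With outlier spots kept, 3 of 5 Sertoli genes were called lower at that fold (13.7% of all tested probes in that fit). Leydig markers summed to 26.3, 28.2 and 25.2 in neonatal and 72.7, 56.3 and 54.1 in adult replicates 1 to 3 (*Hsd3b1* brightest, *Insl3* in adult testis), and 0 of 3 tested were called at that fold, also at an unadjusted p of at most 0.05. *Insl3*, a hormone gene, had a mean of 1.92 in neonatal and 5.41 in adult testis. It had outlier spots on 5 arrays and was not tested with them left out. With them kept, limma called it higher at a fold of at least 5 (log2 fold change 3.49, adjusted p = 0.000443). Without *Insl3* the Leydig sum was 21.3, 22.9 and 23.2 in neonatal and 17.1, 16.9 and 18.9 in adult replicates 1 to 3, lower and not higher in adult testis. *Hsd3b1* was the only gene in that sum with a lower mean in adult testis (4.23 in neonatal and 3.16 in adult). With outlier spots kept, *Cyp11a1*, *Star* and *Cyp17a1* were at 1.295, 1.34 and 0.77 on the log2 scale (limma adjusted p = 0.00184, 0.0176 and 0.165). With outlier spots left out and no fold minimum, 32.8% of all tested probes were higher and 41.5% lower. There 2 genes of steroid synthesis rose, *Star* by 1.34 on the log2 scale (adjusted p = 0.0204) and *Cyp11a1* by 1.16 (adjusted p = 0.00937). Another, *Hsd3b1*, fell by 1.04 (adjusted p = 0.01), and was at -1.70 and -1.73 under normexp and quantile normalization. These changes accompany those of the isozymes and their counterparts, and their part in the results was not tested.

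Blood, vessel and muscle cells can bring somatic isozymes into a testis sample. The peritubular myoid list summed to between 21.7 and 27.0 in neonatal and between 4.34 and 6.56 in adult arrays (*Myh11* brightest, *Cnn1* not well above background), and the endothelial list to between 7.63 and 14.9 and between 1.76 and 3.25 (*Cdh5* brightest), with 2 of 4 tested called lower at a fold of at least 5. The macrophage list, 3 of 4 genes with a probe, lay between 2.76 and 2.84 in neonatal and between 1.78 and 2.46 in adult arrays (*Csf1r* brightest). The red blood cell list, 3 of 4 genes with a probe, lay between 2.30 and 5.98 and between 2.11 and 2.75 (*Alas2* brightest, *Hba-a1* in neonatal testis), and the skeletal muscle list between 0.110 and 0.392 and between 0.160 and 0.219 (*Acta1* brightest, *Myh1* in adult testis, *Tnnt3* not well above background on any array and *Ckm* on 1 of 6). In the peritubular myoid, macrophage, red blood cell and skeletal muscle lists, limma called 0 of 3, 0 of 2, 0 of 2 and 0 of 4 tested genes at that fold, also at an unadjusted p of at most 0.05. With no fold minimum all 3 myoid genes were lower, where 41.5% of all tested probes were. *Myh11* fell by 2.31 (adjusted p = 0.00149), *Tagln* by 1.95 and *Acta2* by 1.91 (adjusted p = 0.00193 each). *Myh11* was called lower at a fold of at least 5 under normexp (-2.98) and quantile normalization (-2.93).

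Around the members, 22 other glycolytic enzymes were taken as the rest of the pathway, each with a probe. Of 16 tested, 3 were called higher at a fold of at least 5 (15.4% of all tested probes were) and 0 lower (12.2% of all; also 0 at an unadjusted p of at most 0.05 and 0 by the methods' t-test). In other settings the count lower was 1 (no floor, quantile normalization, scaling to the median) or 2 (the authors' values). *Eno2*, the enzyme called lower under quantile normalization, was not well above background in adult testis and is left out of what follows. With no fold minimum 7 of the other 15 were higher and 5 lower (32.8% and 41.5% of all tested probes), and with outlier spots kept 8 of 19 were higher and 9 lower (32.9% and 45.0%). Those lower include *Gpi1*, for which a repeated probe went the other way. The median log2 fold change of the 15 was 0.66, against -0.21 over all tested probes. With outlier spots kept, that of the 19 was -0.13 against -0.30. No probe was left out in this way from the values over all probes. With *Eno2* counted, 6 of 16 were lower and the median was 0.27. With *Eno2* counted and outlier spots kept, 10 of 20 were lower and the median was -0.33.

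The 3 enzymes called higher were *Ldhal6b*, a lactate dehydrogenase gene of the testis, with a log2 fold change of 11.85 (adjusted p = 7.62e-05; 10.07 under normexp), *Eno4*, an enolase needed for the sperm tail, with 3.39 (adjusted p = 0.000144), and *Hk1*, the hexokinase that starts glycolysis, with 3.10 (adjusted p = 0.000238). Under normexp *Hk1* was at 1.95, below the fold minimum, which left 2 enzymes called higher. *Ldhal6b* was at -5.66, -5.15 and -4.86 in neonatal and 6.41, 6.33 and 7.15 in adult replicates 1 to 3. Thus of the lactate dehydrogenase genes in the set and beside it, *Ldhal6b* changed far more than *Ldhc*, *Ldha* or *Ldhb*. Of the enzymes with the highest mean signal, *Pgam1* (phosphoglycerate mutase) fell by 1.46 on the log2 scale (adjusted p = 0.00377; -2.17 under quantile normalization and -2.15 under normexp), *Pfkm* (the muscle type phosphofructokinase) rose by 2.00 (adjusted p = 0.00188), and *Eno1* was at -0.53 (adjusted p = 0.116). With outlier spots kept *Eno1* was lower at no fold minimum (adjusted p = 0.0367), and under quantile normalization and normexp it was at -1.19 and -1.23. *Pgam2*, the muscle type mutase, was singled out after its values were seen. It could not be tested with outlier spots left out, and with them kept its log2 fold change was 12.06 (adjusted p = 1.1e-05), next to a fall by 1.59 for *Pgam1* in that fit.

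**Figure D3:**
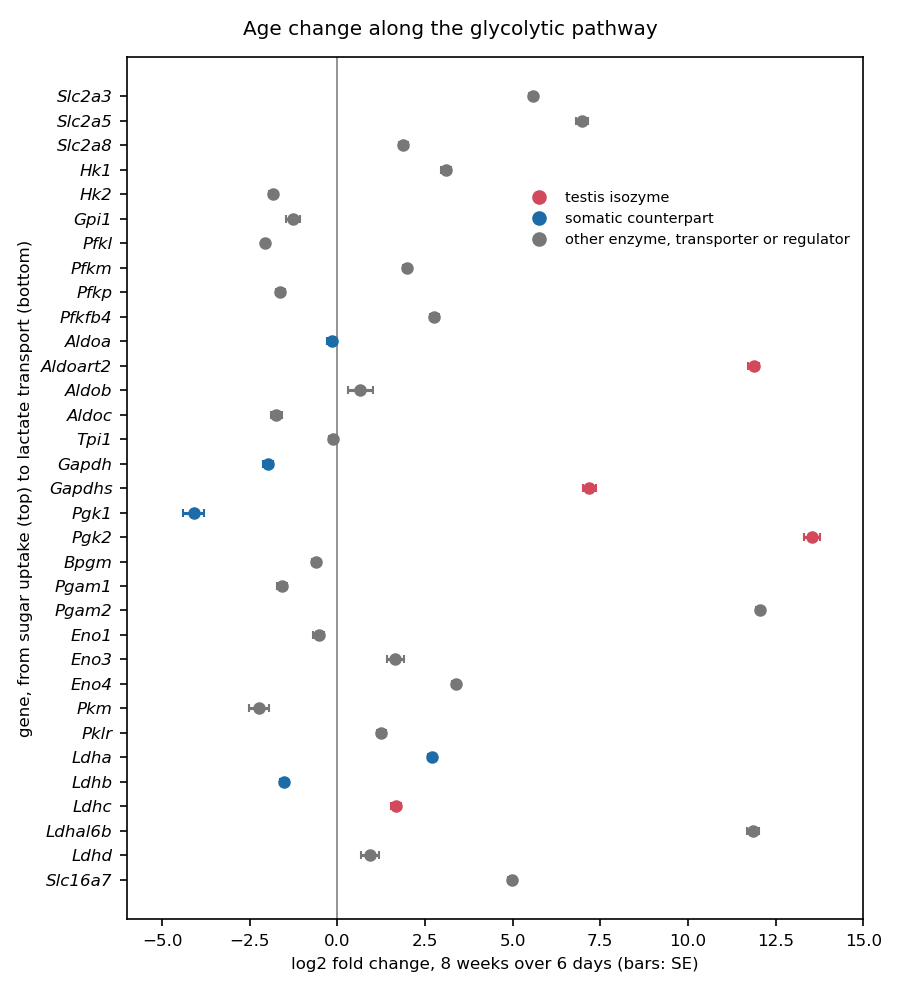
Log2 fold change of adult over neonatal testis (horizontal axis) with outlier spots kept, ordered by step. Shown are the members, every other tested glycolytic enzyme apart from *Eno2*, which was not well above background in adult testis, and 5 transport or regulator genes. These 5 all rose, and genes of their list that fell, such as *Slc2a1* (-1.88), *Slc2a2* (-1.53) and *Pfkfb3* (-2.15), are not drawn. Bars are the moderated SE of the fit on 3 pairs. At most steps 1 gene lies to the right and another to the left of 0, as for *Pgk2* (13.53) and *Pgk1* (-4.10) or *Pgam2* (12.06) and *Pgam1* (-1.59).

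Genes that bring sugar in, carry lactate or set phosphofructokinase activity were a list of 17, of which 14 were tested. At a fold of at least 5, 4 were called higher and 0 lower (15.4% and 12.2% of all tested probes; 0 lower also at an unadjusted p of at most 0.05). Under quantile normalization 2 were called lower, *Pfkfb3*, which makes fructose-2,6-bisphosphate (-2.31 in the main fit and -2.42 there), and *Slc2a4*. With no fold minimum 6 of the 14 were higher and 5 lower (32.8% and 41.5% of all), with a median of 0.18. *Slc2a4* and *Slc16a8*, which were among those lower, were not well above background in adult testis. Without them 6 of the other 12 were higher and 3 lower, with a median of 0.39. These 3 were *Pfkfb3*, *Slc2a1* (-1.99) and *Slc2a2* (-1.53), the last 2 both glucose transporters. The 4 called higher were *Slc2a3*, a glucose transporter of neurons and sperm (log2 fold change 5.52), *Slc2a5*, the fructose transporter (6.93, and 4.93 under normexp), *Slc16a7*, a lactate and pyruvate transporter (5.03), and *Pfkfb4*, the testis form of the enzyme that makes fructose-2,6-bisphosphate (2.72). *Slc2a8*, which has one of the 3 highest mean signals in the list, rose by 1.96 (adjusted p = 0.00182). *Slc16a1* and *Emb* were not well above background on any array.

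Pyruvate that is not turned into lactate enters mitochondria through 13 listed genes, of which 9 were tested. At a fold of at least 5, 1 was called higher, *Pdk2*, a kinase that inhibits pyruvate dehydrogenase (log2 fold change 3.04, adjusted p = 0.00105), and 0 lower (15.4% and 12.2% of all tested probes, and 0 lower also at an unadjusted p of at most 0.05). Under quantile normalization and under normexp 2 were called lower at that fold, *Pdha1* (-2.55 and -2.59) and *Pdk3* (-2.42 and -2.46). With no fold minimum 3 were higher and 3 lower (32.8% and 41.5% of all), and the median was 0.03. Of the genes with the highest mean signal, *Pdhb* was at 0.62 (adjusted p = 0.0285), *Mpc1* was at 0.24 (adjusted p = 0.226), and *Dld* was not tested with outlier spots left out. The direction turned for *Pdhb* under normexp (-0.10) and quantile normalization (-0.13), and for *Mpc1* likewise (-0.68 and -0.52).

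The fibrous sheath, to which *Gapdhs* binds, was represented by 5 of 7 listed genes. Only 2 were tested. *Fsip1*, a sheath-interacting protein gene, was called higher with a log2 fold change of 5.40 (adjusted p = 0.000379). *Ropn1*, whose protein binds anchoring proteins of the sheath, was at the floor and not well above background on any neonatal array, and it gave 6.19, 6.34 and 6.71 in adult replicates 1 to 3, with no fold or p given. It entered the fit through the adult arrays alone, as did *Akap3* with outlier spots kept, so the calls are not counted over the list. With outlier spots kept *Akap4*, the main structural protein of the sheath (12.36), and *Spa17* (4.94) were called higher too.

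Genes with the most similar signal across the 6 arrays were sought among 5069 mRNA probes with no outlier spot and well above background on every adult array, by the root mean square difference of signals centred on their own mean. For *Aldoart2* they were *Actl7a*, an actin-like gene of the sperm head (difference 0.14), and *Gsg1*, a germ cell gene (0.25). None is named for *Gapdhs* and *Pgk2*, whose neonatal signals at or near the floor would set the likeness. For *Ldhc* the genes were *Tmem63c* (0.13) and *Dusp19* (0.13). Their neonatal signals had an SD of 1.03 and 1.02 over the 3 replicates, beside 0.97 for *Ldhc*, so that the likeness to *Ldhc* includes its high replicate 3.

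Promoter sequence was available from RefSeq for 9 of the 10 members, as windows of 300 bases around an annotated start (build GRCm38.p6). Both strands of each window were searched for TGACG, the core of the cAMP response element that CREB and CREM bind, for the whole element TGACGTCA, which contains that core, and for the GC box GGGCGG. Among 32851 windows of 300 bases these letters occur in 20.8%, 1.79% and 35.7%. The first listed window is printed for the testis isozymes, which rose, and for *Ldha*, the counterpart that rose. Capitals mark TGACG and GGGCGG on either strand.
Gapdhs promoter, chr7:30743632-30743931, minus strand: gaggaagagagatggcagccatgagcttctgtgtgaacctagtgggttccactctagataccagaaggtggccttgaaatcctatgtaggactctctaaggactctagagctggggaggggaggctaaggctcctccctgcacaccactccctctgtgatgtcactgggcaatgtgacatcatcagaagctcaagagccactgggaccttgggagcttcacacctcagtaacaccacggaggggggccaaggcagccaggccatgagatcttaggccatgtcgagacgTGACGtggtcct
Pgk2 promoter, chr17:40208560-40208859, minus strand: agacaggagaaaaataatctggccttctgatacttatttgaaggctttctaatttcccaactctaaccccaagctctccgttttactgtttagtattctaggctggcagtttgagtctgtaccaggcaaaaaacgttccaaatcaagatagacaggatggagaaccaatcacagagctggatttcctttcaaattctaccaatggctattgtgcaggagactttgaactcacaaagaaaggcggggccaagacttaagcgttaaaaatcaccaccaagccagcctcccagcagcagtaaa
Ldhc promoter, chr7:46861013-46861312, plus strand: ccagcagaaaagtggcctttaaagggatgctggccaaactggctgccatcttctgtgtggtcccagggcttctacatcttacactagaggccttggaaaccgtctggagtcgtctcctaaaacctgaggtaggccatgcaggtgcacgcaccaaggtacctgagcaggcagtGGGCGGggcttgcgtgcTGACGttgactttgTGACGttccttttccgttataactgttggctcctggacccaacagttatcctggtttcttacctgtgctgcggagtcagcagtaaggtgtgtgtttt
Aldoart2 promoter, chr12:55564955-55565254, plus strand: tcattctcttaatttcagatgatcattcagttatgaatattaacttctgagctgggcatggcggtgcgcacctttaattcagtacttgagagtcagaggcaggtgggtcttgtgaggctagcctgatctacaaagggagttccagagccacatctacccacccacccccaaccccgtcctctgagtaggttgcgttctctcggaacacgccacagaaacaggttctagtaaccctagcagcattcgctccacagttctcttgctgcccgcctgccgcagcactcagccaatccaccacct
Ldha promoter, chr7:46845554-46845853, plus strand: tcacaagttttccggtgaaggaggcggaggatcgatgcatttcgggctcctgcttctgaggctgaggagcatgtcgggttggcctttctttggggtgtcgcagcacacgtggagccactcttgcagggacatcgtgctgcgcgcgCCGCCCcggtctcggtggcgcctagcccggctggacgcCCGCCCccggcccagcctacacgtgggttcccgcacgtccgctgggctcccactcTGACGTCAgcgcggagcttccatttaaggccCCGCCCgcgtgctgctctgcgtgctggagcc

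In these windows *Ldhc* held TGACG at 2 positions (190 and 204 from the 5′ end) and GGGCGG at 1 (173), and *Gapdhs* held TGACG at 1 (289). The *Ldha* window held the whole TGACGTCA at position 239 and GGGCGG at 3 positions. The windows of *Pgk2* and *Aldoart2*, the genes with the greatest changes among the members tested, held none of these letters. The second annotated windows of *Ldhc* and *Gapdhs* held neither TGACG nor GGGCGG, and that of *Ldha* held TGACG at 1 position. Among the counterparts that did not rise, the *Pgk1* window held GGGCGG at 5 positions and 2 of the 3 *Aldoa* windows, which overlap, held the same 3 matches to it, while those of *Gapdh* and *Ldhb* held none of these letters. *Ldha* and *Ldhc* neighbour each other on chromosome 7, on the same strand, with 15459 bases between the starts of the printed windows. A match is a description of the sequence only, and binding was not measured.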

How the data were processed

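The authors hybridized Cy3-labelled cDNA from whole testis to 6 single-colour arrays and read them with Agilent Feature Extraction 10.5.1.1, as the submitters' processing notes state. The deposited scanner files give spot intensity, background-subtracted and not normalized between arrays. A second file that the authors deposited holds their own log2 values, used as an alternative. For 99.8% of probes these are the log2 scanner signal, raised to 5 where lower, shifted by 1 constant per array (tolerance 0.001).

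Repeated spots were averaged per probe. Signals were divided by the 75th percentile of non-control probes on their array (between 747.3 and 2947 in scanner units), and a common floor of -7.22 was set on the log2 scale. Accessions were named through a RefSeq table on GRCm38.p6, which matched 97.5% of mRNA probes. Where several mRNA probes mapped to a gene, the one with the highest mean signal was counted. A probe had to be well above background on some array to enter limma 3.58.1 (R 4.3.3), which estimated adult minus neonatal with the replicate number as a block, since the methods name a paired test. P-values were adjusted by Benjamini-Hochberg over 24517 probes. Prior degrees of freedom were 2.08, and each SE of the fit is moderated toward the spread of all tested probes. The fit was run on simulated arrays with no missing spots, with changes only in probes whose neonatal signal lay above the 75th percentile. That simulation does not cover fits on 2 pairs or signals near the floor. Deviations of same-numbered arrays from the mean of their age correlated between ages at 0.53, 0.484 and 0.816, and those of the other numbers in the same scan at 0.59 and 0.522, so that these values do not tell pairing by number from the scan. No spot was saturated. Signal over background and the number of arrays limit the precision.

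The normexp alternative used the median spot and background signals with an offset of 50, followed by quantile normalization. It is thus not independent of the alternative with quantile normalization alone. The other alternatives concerned the floor, quantile normalization and scaling to the median, filters on dim probes, outlier spots, the block, the methods' t-test, the fold threshold and leaving out each replicate. From the pathway lists, genes called at a fold of at least 5 and the 3 with the highest mean signal were named. Likeness between genes was computed on rows centred on their mean. Ratios were tested with exact permutation tests in scipy 1.17.1 (numpy 2.4.6, pandas 2.3.3, matplotlib 3.10.9, Python 3.11.15). The members and lists were chosen with earlier results of these data known.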

Additional observations from a re-analysis of the deposited data

How the results depend on the processing

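No member's log2 fold change and no isozyme ratio change turned its sign in any setting that was run. Of 164 refits of single member probes, 155 stayed on their side of the threshold, 4 fell under it and 5 passed it. Members called higher numbered 3 to 5 over the settings with all replicates and 1 to 4 when a replicate was left out, since without replicate 1 or 2 *Gapdhs* alone had 2 complete pairs. With outlier spots kept the count was 4 without each replicate, alternatives added after seeing the data. Members called lower were 0, but 1 under quantile normalization and under normexp (*Gapdh*), 1 with the authors' log2 values and with outlier spots kept (*Pgk1*; also 1 there without each replicate and 1 with no replicate block), and 2 at a fold of at least 2. Without the replicate block 4 members were called higher and 0 lower, as with it, and apart from *Ldhc* with outlier spots kept and no fold minimum (adjusted p = 0.0514 without the block) it changed no call of a member. The fall of *Gapdh* with no fold minimum was also lost with no filter on dim probes (adjusted p = 0.0536), and the second *Ldha* probe by the methods' t-test after adjustment (0.0755). Of the other enzymes, 6 were called higher and 5 lower at a fold of at least 2. Those called higher were 2 under normexp and 4 with the authors' values and with outlier spots kept, and those called lower were 1 with no floor, under quantile normalization and scaled to the median, and 2 with the authors' values. The *Gapdhs*/*Gapdh* change was 10.64 with no floor, 10.39 with the floor before scaling and with the authors' values, and 7.63 under normexp, which also gave 12.72 for *Pgk2*/*Pgk1* and 10.48 for *Aldoart2*/*Aldoa*. The cause was not tested for normexp, while the floor sets the neonatal *Gapdhs* signal. As a replicate block, the paired ratio changes have the same means, with exact sign-flip p = 0.25, the smallest possible with 3 pairs. With outlier spots left out, *Pgk2*/*Pgk1* and *Aldoart2*/*Aldoa* had too few arrays for a ratio. The median log2 fold change of all tested probes was -0.21, but -0.59 under quantile normalization, -0.44 scaled to the median and -0.60 with the authors' values. Relative to it *Ldha* changed by 2.90, 2.61, 2.88 and 3.03, *Ldhc* by 1.95, 1.91, 1.93 and 2.01, *Gapdh* by -1.70, -2.01, -1.73 and -1.63, and *Ldhb* by -1.22, -1.60, -1.25 and -1.19, in that order. Under normexp, with a median of -0.24, these were 2.43, 1.54, -2.33 and -1.87. The folds of *Gapdh* and *Ldhb* thus moved by over 1.5 times from the main fit, and the cause was not tested.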

Other observations

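*Gapdh* was not alone among reference genes in its fall. The arrays carry repeated probes, 10 spots each, for genes often used as references, and these gave differences of adult minus neonatal mean signal that ran from -4.26 ± 0.62 (SD of the 3 pairs) for *Hsp90ab1* to 1.12 ± 0.61 for *Tbp*, whose ages overlapped. *Actb*, which encodes cytoplasmic actin, differed by -2.59 ± 0.31, *Hprt*, a purine salvage gene, by -1.62 ± 0.17, and *Rpl13a*, a ribosomal protein gene, by -3.56 ± 0.33, each with no overlap of the ages. *Ppia*, which encodes cyclophilin A, differed by -0.20 ± 0.14, and its ages overlapped. These repeated probes lie outside the lncRNA and mRNA designs and were not tested in the fit.

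A gene of the pathway whose probes gave opposite directions was *Gpi1*, the isomerase of glucose 6-phosphate, singled out after its values were seen. Its mRNA design probe was at -3.02, -2.76 and -3.44 in neonatal and -4.48, -4.35 and -4.18 in adult replicates 1 to 3 (log2 fold change -1.27, adjusted p = 0.00659). Its repeated probe was at 4.21 ± 0.41 in neonatal and 5.33 ± 0.53 in adult testis (SD, n = 3 each), higher in adult testis by 1.12 ± 0.13 (SD of the 3 pairs). The groups did not overlap for either probe, so that the direction of *Gpi1* is not settled by these arrays. For *Ldhal6b* the probes gave like values, 11.85 in the fit and a difference of 11.89 for the repeated probe.

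The X-linked pyruvate dehydrogenase gene *Pdha1* and its autosomal testis counterpart *Pdha2* were looked at after their values were seen, as a further pair of somatic and testis genes. *Pdha1* fell by 2.25 on the log2 scale (adjusted p = 0.0018), from 3.03, 3.12 and 3.00 in neonatal to 0.91, 0.73 and 0.76 in adult replicates 1 to 3. *Pdha2* was not well above background on any of the 6 arrays, so that these arrays give no change for it.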
